A study of Mus musculus with 12 samples.

Results

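The 10 genes described here encode the adaptors, kinases and ligase that carry a signal from Toll-like receptors (TLRs) into the cell, together with brakes on that signal. They were found by gene symbol as 10 of the 40847 rows of the deposited count table, and all 10 were among the 14749 genes that passed the filter on low counts. The 8 activating members were Myd88, Tirap, Ticam1, Ticam2, Irak1, Irak2, Irak4 and Traf6, and the 2 brakes were Irak3 and Tollip. RNA was measured in fetal liver alveolar-like macrophages (FLAMs), mouse cells grown from fetal liver that serve as a culture model of the macrophages of the lung airspace. All cells, controls included, received recombinant mouse GM-CSF at 30 ng/ml. The 4 groups of 3 libraries were untreated cells, cells kept with recombinant human TGFβ1 at 20 ng/ml (TGFβ), cells given the TLR2 ligand Pam3CSK4 at 25 ng/ml for 18 hours (Pam3), and cells given both (Pam3+TGFβ). The mouse strain and the number of FLAM isolates are not given in the sources used here. The labels number the replicates and do not say whether they were separate cultures, so p-values measure only the spread between these libraries, which may be technical.

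As background, a ligand-bound TLR2, paired with TLR1 or TLR6, recruits the sorting adaptor TIRAP and through it the adaptor MyD88. MyD88 assembles the kinases IRAK4, IRAK1 and IRAK2 into a signalling complex, from which the ubiquitin ligase TRAF6 leads to the kinase TAK1, the IKK complex and NF-κB. The other arm uses the adaptor TRIF (encoded by Ticam1), which TLR3 binds directly and TLR4 reaches through the bridging adaptor TRAM (encoded by Ticam2), and leads to the kinase TBK1 and interferon regulatory factors. IRAK-M (encoded by Irak3), a family member known mainly for restraining the MyD88 complex in macrophages, and TOLLIP, a protein that binds IL-1 and Toll-like receptor complexes and limits IRAK1 activity, are counted as brakes.

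Library totals ran from 34036650 to 44374115 counts, and a principal component analysis put 52.2% of the variance on a first and 20.5% on a second component. All 8 macrophage and all 8 alveolar macrophage markers passed the filter. The 8 macrophage markers summed to 32400 to 36600 CPM, the count scaled to library size, in the untreated libraries, 17100 to 18000 with TGFβ, 35400 to 36600 with Pam3 and 26200 to 26900 with both. Markers of neutrophils (6 genes) summed to 13.5 to 15.7 CPM in untreated, 3.62 to 5.31 in TGFβ, 16.2 to 16.5 in Pam3 and 4.92 to 6.4 CPM in Pam3+TGFβ libraries, with Mpo at 0 in every library. S100a8 carried that sum, with means of 13.8 CPM untreated and 3.07 with TGFβ, while S100a9 (0.253 and 0.993 CPM) and Ngp (0.346 and 0.623 CPM) stood higher with TGFβ. Markers of megakaryocytes (4 genes) summed to 6.89 to 8.41, 0.332 to 0.472, 13 to 14 and 0.643 to 1.25 CPM in the same order, with Gp9 at 0 in all groups but Pam3. Markers of dendritic cells (4 genes) ran from 4.48 to 5.62 CPM in untreated and 1.23 to 1.94 in TGFβ libraries, of endothelial cells (4) from 1.68 to 1.89 and 0.0524 to 0.277, and of mast cells and basophils (4) from 0.263 to 1.2 and 0 to 0.0741 CPM. The hepatocyte list (5 genes), nearly all Afp, stood at 5.8 to 5.87 CPM untreated and 8.41 to 10.2 with both agents, and the erythroid, lymphocyte and fibroblast lists were at or under 0.904 CPM in every library. Most of the macrophage sum was Lyz2 (29800 CPM untreated, 15200 with TGFβ). Lower means with TGFβ were also seen for Itgam (1090 and 38.8 CPM), Adgre1 (303 and 145), Cd68 (858 and 549), Ptprc (737 and 510) and Csf1r (983 and 820), while Mertk stood at 223 and 222 and Fcgr1 at 81.1 and 91.3 CPM. The alveolar markers were split, with Marco at 2150 CPM untreated and 123 with TGFβ and Fabp4 at 31.1 and 0.132, against Siglecf at 32.1 and 300 and Pparg at 117 and 225 CPM. These levels moved with TGFβ, and their part in the results below was not tested. In RNA from a whole culture, fewer cells of a type and less RNA per cell cannot be told apart.

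The Pam3 response of 4 members, Myd88, Traf6, Irak3 and Tollip, differed between cells with and without TGFβ, and a short stretch before the start of each is shown because these are the genes on which the results turn. The RefSeq table of windows around gene starts (build GRCm38.p6, 250 bases before to 50 after the start) held 12 windows for 9 of the 10 members, and the 250 bases before each start matched GRCm39 exactly. On GRCm39, Myd88 spans chr9:119165000-119170486 (minus strand, 6 exons in the canonical transcript), Traf6 chr2:101508519-101533545 (plus, 8 exons), Irak3 chr10:119975568-120038035 (minus, 12 exons) and Tollip chr7:141428550-141472244 (minus, 6 exons). The stretches are 30 bases long and read 5′ to 3′ on the strand of the gene, with letters that fit a searched motif in capitals. They lie at chr9:119169105-119169134 (minus strand), chr2:101508695-101508724 (plus), chr10:120037508-120037537 (minus) and chr7:141456219-141456248 (minus) of GRCm39.
Myd88: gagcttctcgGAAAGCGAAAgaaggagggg
Traf6: acagacaGGGGGCGGCCTCTCCCgcggggc
Irak3: ggtctcgcaGGGCGCATCCCtggggagcgg
Tollip: tagccggaagGGGCGGGGCCagctattgcc

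Motifs were searched on both strands, and matches that overlap are capitalised as 1 run. The capitals of Myd88 fit GAAA, 2 bases of any kind and GAAA again, an ISRE-type motif of the kind that interferon-activated factors bind, at bases -40 to -31 from the start. That motif was in 3.44% of all 32851 windows and in 3.24% of the 14256 windows of tested genes, and among the members it was found in Myd88 only. The capitals of Traf6, Irak3 and Tollip fit GGG, 5 bases of any kind and CC, an NF-κB-type motif on either strand, which was held by 50.8% of all windows and 64.5% of those of tested genes and so marks little. It was found for each of the 9 members with a window except Myd88. The SMAD-type letters GTCTAGAC (0.213% of windows) and AGCCAGACA (0.387%) were not in the members' windows. A match of letters is a description and shows no bound site. Per the GENCODE M39 annotation, the 250 bases before the RefSeq start of Myd88 lie within a UTR exon of a longer isoform of the same gene, as do 246 of the 250 bases of Traf6. Those of the Irak3 start shown, which lies inside the gene, are within exons of Tmbim4 on the opposite strand, with 62 of them also in UTR exons of Irak3. RefSeq gives Irak3 another start at the end of the gene, whose window held 0 matches to the searched motifs and whose 250 bases before the start have 65 in exons of Tmbim4. Those of Tollip lie within the gene, with 26 in its own UTR exons and 175 in exons of the lncRNA gene Gm32539 on the opposite strand.

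Levels of different genes were compared per length, as RPKM, which divides CPM by kilobases of exon, from the union of exons. In untreated cells Myd88 had the highest level of the members at 39.4 ± 1.66 RPKM (SD, n = 3), above 94% of tested genes. Tollip followed at 25.2 ± 1.1 and Irak1 at 22.2 ± 0.169 RPKM. The other members lay between 5.58 ± 0.363 RPKM for Traf6 and 13 ± 0.574 RPKM for Ticam2. Irak3, at 8.29 ± 0.396 RPKM, was among the lower members at rest, whereas in the Pam3 libraries it stood at 24.7 ± 1.43 RPKM, beside 23.7 ± 0.318 for Tollip and below 45.6 ± 1.64 for Myd88. These comparisons between genes depend on the length used. Exon unions have 5661 bases for Irak3, 5223 for Tollip and 6299 for Irak4, and canonical transcripts 5082, 3788 and 2862. The order of Irak3 and Tollip with Pam3 and the place of Irak4 at rest hold for exon unions only. Below, each gene is given in CPM, a scale on which libraries, but not genes, are compared.

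**Figure D1:**
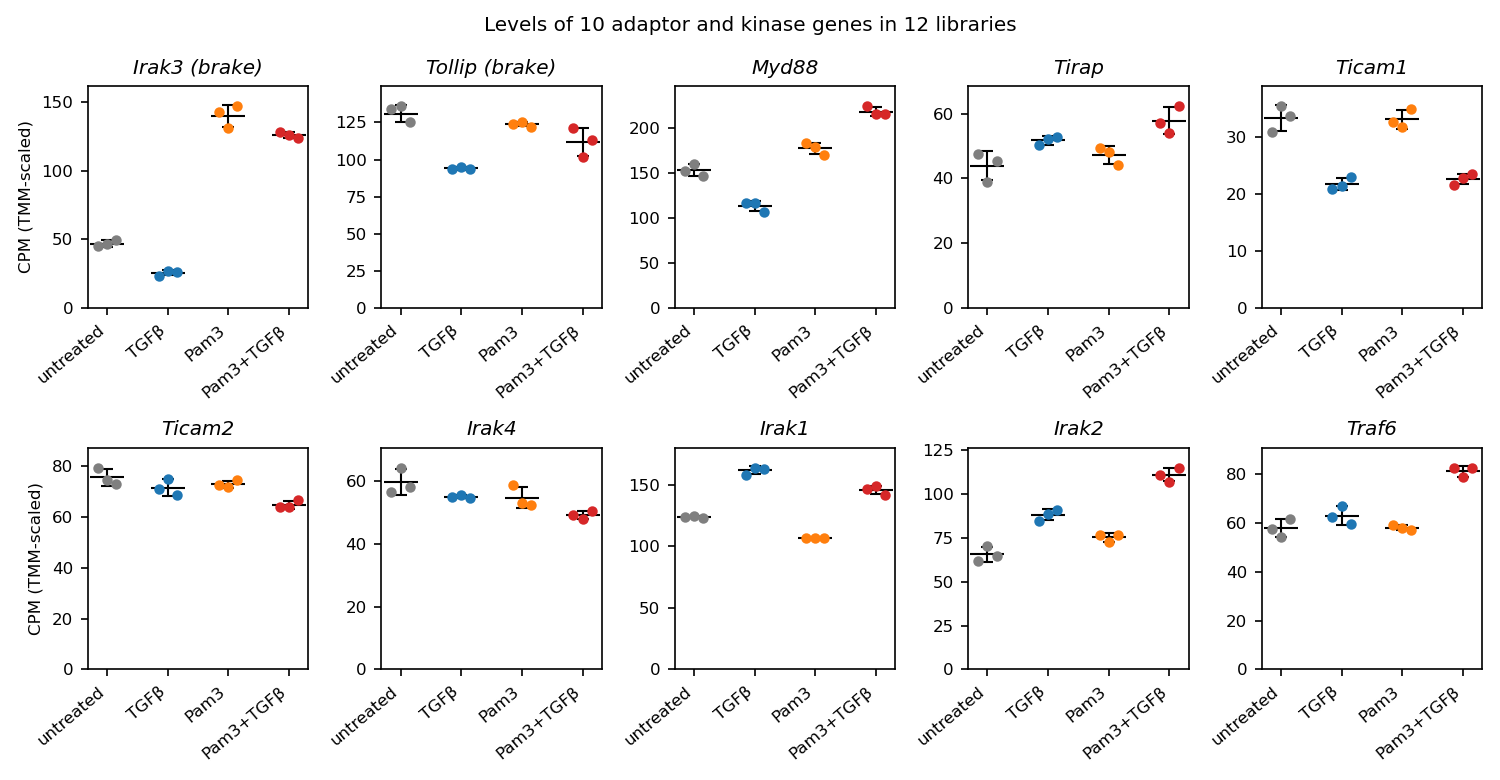
Level of each of the 10 genes in CPM with TMM-scaled library sizes (vertical axis, from 0) in the 4 groups (horizontal axis); coloured points are the 3 libraries of a group and black bars the mean ± SD. Irak3 sits between 131 and 147 CPM in the Pam3 libraries against 44.8 to 49.3 CPM in the untreated ones, and Myd88 is lowest with TGFβ alone and highest with both agents.

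The brake Irak3 had the largest response of all members. It held 44.8, 46.6 and 49.3 CPM in the untreated libraries, 23.5, 27 and 26.4 with TGFβ, 143, 131 and 147 with Pam3, and 128, 126 and 124 CPM with both. No group overlapped another, and the order of levels was Pam3, Pam3+TGFβ, untreated and TGFβ. In cells without TGFβ, Pam3 raised Irak3 2.99-fold, a log2 difference of 1.58 (SE 0.0607, adjusted p 2.83e-15), which was larger in size than that of 98% of tested genes. In cells with TGFβ it rose 4.91-fold, a log2 difference of 2.3 (SE 0.063, adjusted p 1.16e-19). The difference between these responses was 0.72 on the log2 scale (SE 0.0854, adjusted p 6.23e-07). TGFβ alone lowered Irak3 to 0.547 of the untreated level (log2 difference -0.87, SE 0.0623, adjusted p 8.86e-12), so the larger fold started from a lower level and did not end at a higher one. With Pam3 present, the TGFβ difference was -0.15 (SE 0.0586, adjusted p 0.0374), and the call was lost in 10 of 20 alternatives, among them without Pam3 replicate 1 or 3 or any 1 of the Pam3+TGFβ libraries (log2 difference -0.11 to -0.17, adjusted p 0.0579 to 0.198).

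Tollip, the other brake, did not share the rise with Pam3 alone. It held 134, 136 and 125 CPM in untreated libraries, 93.6, 94.8 and 93.5 with TGFβ, 124, 125 and 122 with Pam3, and 121, 102 and 113 CPM with both. The TGFβ libraries lay below all others, which ran from 102 to 136 CPM. TGFβ alone lowered Tollip (log2 difference -0.48, SE 0.0547, adjusted p 4.05e-08). Pam3 gave a log2 difference of -0.09 without TGFβ (SE 0.0544, adjusted p 0.304) and raised it by 0.25 with TGFβ (SE 0.0547, adjusted p 0.000585), and these responses differed by 0.34 (SE 0.0772, adjusted p 0.0025). With both agents Tollip stayed below the untreated level (log2 difference -0.23, SE 0.0545, adjusted p 0.000805), unlike Irak3 (1.43, SE 0.0606, adjusted p 1.95e-16). The lower level with both agents than with Pam3 (-0.14, adjusted p 0.0334) was lost as a call in 10 of 20 alternatives, among them without any 1 of the Pam3 libraries or without Pam3+TGFβ replicate 2 or 3 (-0.08 to -0.15, adjusted p 0.0642 to 0.28).

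Among the adaptors, Myd88, the hub of the TLR2 signal, changed in every comparison. Its levels were 152, 160 and 147 CPM in untreated libraries, 116, 116 and 107 with TGFβ, 183, 179 and 170 with Pam3, and 224, 215 and 215 CPM with both. The groups did not overlap, and the TGFβ effect had opposite directions at rest and after Pam3. TGFβ lowered Myd88 without Pam3 (log2 difference -0.44, SE 0.048, adjusted p 2.23e-08) and raised it with Pam3 (0.3, SE 0.0476, adjusted p 9.89e-06). Pam3 raised it by 0.21 without TGFβ (SE 0.0477, adjusted p 0.00222) and by 0.95 with TGFβ (SE 0.0481, adjusted p 1.49e-14). The difference between the Pam3 responses, 0.74 (SE 0.0676, adjusted p 7.48e-09), was larger in size than that of 84.9% of tested genes. The stretch with the ISRE-type letters shown above belongs to this gene, and any part of it in these responses was not tested. Acaa1a, a peroxisomal thiolase gene on the opposite strand, covers 16.2% of the exon bases of Myd88, and the strand setting of the counting is not given in the sources used here. Acaa1a stood at 135, 132, 141 and 174 CPM in untreated, TGFβ, Pam3 and Pam3+TGFβ libraries, with a difference between its Pam3 responses of 0.33 (SE 0.0891, adjusted p 0.0112), and its part in the counts of Myd88 was not tested.

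Tirap, which sorts MyD88 to TLR2 at the membrane, was higher with TGFβ and little moved by Pam3. It held 47.5, 39 and 45.3 CPM in untreated, 50.2, 52.2 and 52.8 in TGFβ, 49.4, 48.2 and 44 in Pam3, and 57.2, 53.9 and 62.3 CPM in Pam3+TGFβ libraries. TGFβ libraries lay above their counterparts without TGFβ in both states. The TGFβ difference was 0.24 at rest (SE 0.072, adjusted p 0.00797) and 0.29 with Pam3 (SE 0.0719, adjusted p 0.0015). The call at rest was lost without untreated replicate 2, which had the lowest level (log2 difference 0.16, adjusted p 0.0523). The Pam3 difference was 0.1 without TGFβ (95% interval -0.05 to 0.25, adjusted p 0.38) and 0.16 with it (0.01 to 0.31, adjusted p 0.0805). The second of these was called without untreated replicate 2 (0.17, adjusted p 0.0242) and in a fit of only the TGFβ and Pam3+TGFβ libraries (0.17, adjusted p 0.0263).

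Ticam1, which encodes TRIF, fell with TGFβ in either state, and no Pam3 response was detected. Its levels were 30.9, 35.4 and 33.7 CPM in untreated libraries, 20.9, 21.4 and 22.9 with TGFβ, 32.7, 31.7 and 34.9 with Pam3, and 21.6, 22.8 and 23.5 CPM with both. All 6 libraries with TGFβ lay below all 6 without it. The log2 difference for TGFβ was -0.62 at rest (SE 0.0764, adjusted p 1.96e-07) and -0.55 with Pam3 (SE 0.0764, adjusted p 1.44e-06). The Pam3 difference was -0.01 without TGFβ (95% interval -0.17 to 0.14) and 0.06 with TGFβ (-0.1 to 0.22), which bounds any response on this scale. As a ratio of counts, which needs no gene length, Ticam1 to Myd88 stood at 0.888 ± 0.0861 of its untreated mean (SD, n = 3) in TGFβ, 0.859 ± 0.0718 in Pam3 and 0.477 ± 0.0299 in Pam3+TGFβ libraries. Relative to untreated cells, the ratio of these adaptors was lowest in the libraries with both agents.

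Ticam2, which encodes the bridging adaptor TRAM, varied little, and its counts are uncertain. Tmed7, a gene of protein transport on the same strand, shares 3782 of the 5792 exon bases of Ticam2 (65.3%), so reads there could be assigned to either gene. Ticam2 lay between 68.4 and 79.3 CPM in the untreated, TGFβ and Pam3 libraries, and at 63.9, 63.7 and 66.7 CPM in the Pam3+TGFβ libraries, below all others. It was lower with both agents than with Pam3 (log2 difference -0.17, SE 0.0555, adjusted p 0.0143), a call lost without Pam3 replicate 3 (adjusted p 0.0657) or Pam3+TGFβ replicate 2 (adjusted p 0.0575). It was also lower with both than with TGFβ (-0.14, SE 0.0554, adjusted p 0.0464), a call lost in 10 of 20 alternatives. These included leaving out untreated replicate 3, TGFβ replicate 2, any 1 of the Pam3 libraries, or Pam3+TGFβ replicate 1 or 2 (adjusted p 0.054 to 0.148). The levels of Tmed7 were 184, 159, 196 and 195 CPM in untreated, TGFβ, Pam3 and Pam3+TGFβ libraries.

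Of the kinases, Irak1, which IRAK4 phosphorylates in the MyD88 complex, was higher with TGFβ and lower with Pam3. It held 124, 125 and 123 CPM in untreated, 158, 164 and 163 in TGFβ, 107, 107 and 107 in Pam3, and 147, 149 and 142 CPM in Pam3+TGFβ libraries. No group overlapped another. The TGFβ difference was 0.39 without Pam3 (SE 0.0434, adjusted p 3.68e-08) and 0.45 with it (SE 0.0436, adjusted p 2.89e-09). Pam3 lowered Irak1 by a log2 difference of -0.21 without TGFβ (SE 0.0436, adjusted p 0.000814) and -0.15 with TGFβ (SE 0.0432, adjusted p 0.00825), and the difference between these was 0.07 (95% interval -0.06 to 0.19, adjusted p 0.558).

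Irak2, a kinase of the same complex known for sustaining late TLR signalling, was the member that both agents raised, singly and together. Its levels were 61.9, 70.3 and 64.7 CPM in untreated, 84.7, 88.7 and 90.8 in TGFβ, 76.9, 72.4 and 76.5 in Pam3, and 111, 107 and 115 CPM in Pam3+TGFβ libraries. The groups did not overlap, in the order Pam3+TGFβ, TGFβ, Pam3 and untreated. TGFβ raised Irak2 by 0.42 at rest (SE 0.0565, adjusted p 6.14e-07) and by 0.56 with Pam3 (SE 0.0563, adjusted p 5.62e-09). Pam3 raised it by 0.34 with TGFβ (SE 0.056, adjusted p 2.37e-05) and by 0.2 without (SE 0.0566, adjusted p 0.0147). The last call was lost without untreated replicate 1 (0.16, adjusted p 0.0861), Pam3 replicate 1 (0.18, adjusted p 0.0675) or Pam3 replicate 3 (0.18, adjusted p 0.0529). The difference between the Pam3 responses was 0.14 (95% interval -0.03 to 0.3, adjusted p 0.282). The lncRNA genes Gm67402 and Gm67399, on the opposite strand, cover 11.2% and 6.5% of the exon bases of Irak2, and their part in its counts was not tested.

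Irak4, the kinase that starts the cascade, was lowest in the libraries with both agents. It held 56.4, 64.2 and 58.2 CPM in untreated, 55, 55.4 and 54.4 in TGFβ, 58.6, 53.1 and 52.3 in Pam3, and 49, 48 and 50.5 CPM in Pam3+TGFβ libraries. The Pam3+TGFβ libraries did not overlap the other groups. Against untreated cells the difference with both agents was -0.28 (SE 0.062, adjusted p 0.000521). The smaller differences against TGFβ (-0.16, adjusted p 0.0447) and against Pam3 (-0.15, adjusted p 0.0472) were lost as calls in 10 and 15 of 20 alternatives. For the first these included untreated replicate 3, TGFβ replicate 1 or 2, any 1 of the Pam3 libraries, or Pam3+TGFβ replicate 1 or 2 left out (adjusted p 0.0503 to 0.0844). For the second they included untreated replicate 3, any 1 of the TGFβ or Pam3+TGFβ libraries, or Pam3 replicate 1 or 2 left out. The log2 difference then ran from -0.09, without Pam3 replicate 1, to -0.17 (adjusted p 0.0518 to 0.291). Twf1, on the opposite strand, covers 10.3% of the exon bases of Irak4.

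Traf6, the ubiquitin ligase downstream of the kinases, was raised where both agents met. It held 57.6, 54.2 and 61.7 CPM in untreated, 62.5, 67.2 and 59.6 in TGFβ, 59.1, 58.1 and 57.3 in Pam3, and 82.6, 78.8 and 82.8 CPM in Pam3+TGFβ libraries. The Pam3+TGFβ libraries lay above all others, and the untreated, TGFβ and Pam3 libraries lay close together. Pam3 gave a log2 difference of 0.01 without TGFβ (95% interval -0.12 to 0.13, adjusted p 0.949) and raised Traf6 by 0.37 with TGFβ (SE 0.0597, adjusted p 1.77e-05). These responses differed by 0.36 (SE 0.0848, adjusted p 0.00366). TGFβ gave 0.13 at rest (SE 0.06, adjusted p 0.0846) and raised Traf6 by 0.48 with Pam3 (SE 0.06, adjusted p 2.21e-07). The difference at rest was called without untreated replicate 3 (0.17, adjusted p 0.0282), TGFβ replicate 3 (0.19, adjusted p 0.025) or Pam3+TGFβ replicate 2 (0.15, adjusted p 0.0477). It was also called with upper-quartile scaling (0.16, adjusted p 0.0299) and among genes with at least 10 counts in every library (0.15, adjusted p 0.0393).

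**Figure D2:**
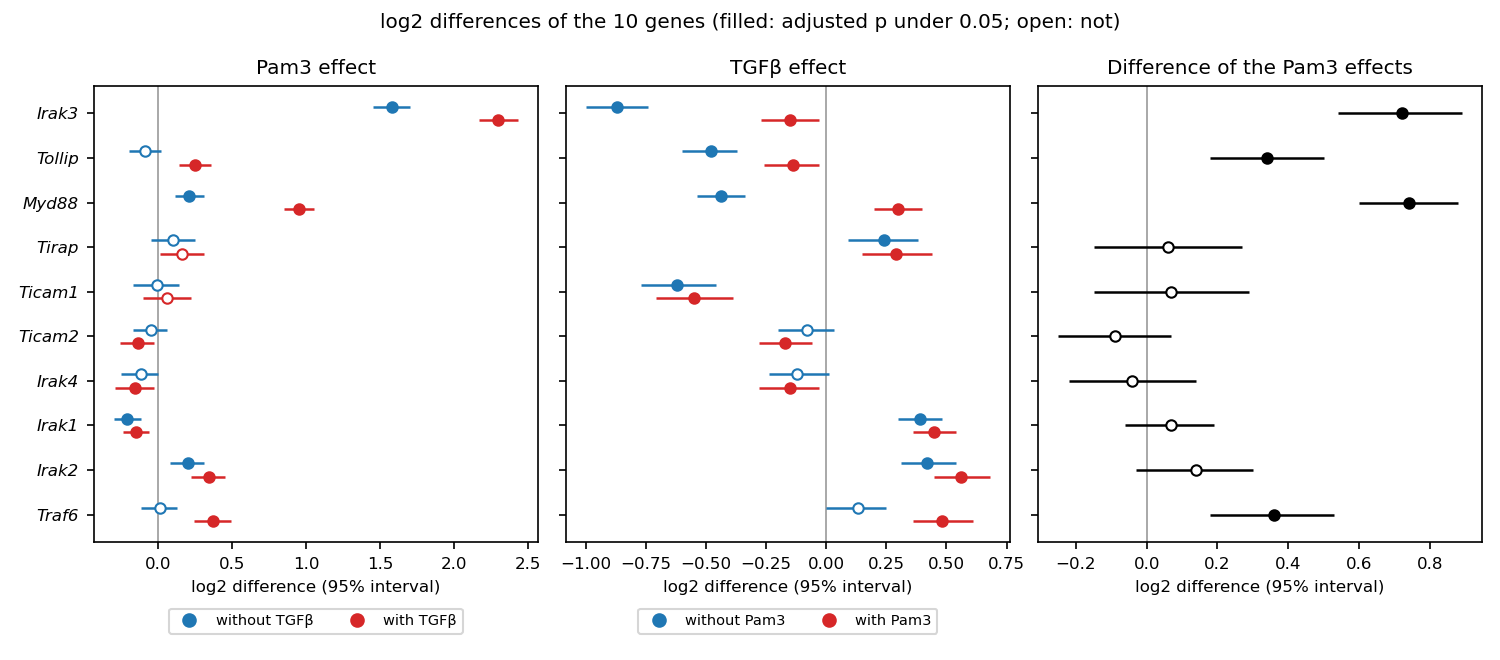
The log2 differences of the 10 genes (horizontal axes) with 95% intervals for the Pam3 effect (left), the TGFβ effect (middle) and the difference of the Pam3 effects with minus without TGFβ (right); filled points have an adjusted p under 0.05. In the right panel Myd88 (0.74), Irak3 (0.72), Traf6 (0.36) and Tollip (0.34) stand to the right of 0, and the other 6 intervals include 0.

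The members called in each comparison are given beside the share of all tested genes called there. Pam3 without TGFβ raised 3 of 10 members (Irak3, Myd88 and Irak2) and lowered Irak1, where the background over the whole table was 9.62% higher and 8.66% lower (18.3% in either direction). Upper-quartile scaling turned that balance, with 1299 of all tested genes higher and 1495 lower in place of 1419 and 1278, and the counts of members stayed at 3 and 1. With TGFβ, Pam3 raised 5 of 10 and lowered 3, against backgrounds of 20.4% and 18.1% (38.5% in either direction), or 2477 higher and 3489 lower of all tested genes with upper-quartile scaling in place of 3008 and 2670. Of the 3 lower calls, those of Ticam2 and Irak4 were among those lost in alternatives above. The members' median log2 difference was 0 without TGFβ and 0.21 with it, where that of all tested genes was 0 and -0.02.

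TGFβ at rest raised 3 members (Tirap, Irak1 and Irak2) and lowered 4 (Myd88, Ticam1, Irak3 and Tollip), where the background was 22.9% higher and 28.1% lower (51.0% in either direction). With Pam3 present all 10 members were called, 5 higher and 5 lower, against 21.5% and 23.8% (45.3% in either direction), and 4 of the 5 lower calls (Irak3, Tollip, Ticam2 and Irak4) were among those lost in alternatives above. The difference between the Pam3 responses was called for 4 members, each higher with TGFβ, against a background of 10.3% higher and 5.67% lower (15.9% in either direction). With upper-quartile scaling 1255 of all tested genes were called higher and 1097 lower in that comparison, in place of 1516 and 836, and 4 members were still called higher. With both agents against untreated cells, 6 members were higher and 4 lower (background 25.0%, 27.2% and 52.1% in either direction), and with Pam3 alone against TGFβ alone 4 were higher and 2 lower (29.6%, 24.5% and 54.0%). In the last comparison upper-quartile scaling gave 4 members higher and 4 lower, and 3969 of all tested genes higher and 4112 lower in place of 4361 and 3610. The Pam3 and TGFβ effects share the untreated or the Pam3+TGFβ libraries, so these counts are not independent of each other.

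The activating members and the brakes were compared in each library as ratios of counts over their untreated mean, a scale free of gene length. Irak2 to Irak3 stood at 2.57, 2.34 and 2.46 in the TGFβ libraries, 0.385, 0.395 and 0.373 with Pam3, and 0.618, 0.609 and 0.664 with both. The ratio thus lay above untreated cells (0.937 to 1.08) with TGFβ and below them in all 6 libraries with Pam3. Irak1 to Irak3 gave the same order, with group means of 2.39 ± 0.129, 0.289 ± 0.017 and 0.439 ± 0.00662 (SD, n = 3). The mean of Irak4 to Irak3 was 1.69 ± 0.128 with TGFβ, 0.308 ± 0.0234 with Pam3 and 0.307 ± 0.0123 with both, so for this kinase the Pam3 and Pam3+TGFβ libraries overlapped. The ratios to Irak3 share that gene and are not independent of each other. Its log2 differences (1.58 and 2.3 for Pam3, -0.87 for TGFβ at rest) were larger in size than those of the kinases. The shared direction of these ratios therefore follows from Irak3.

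The pair of Traf6 and Tollip behaved otherwise. Its ratio was 1.51, 1.6 and 1.44 with TGFβ, 1.08, 1.05 and 1.07 with Pam3, and 1.55, 1.75 and 1.66 with both, against 0.904 to 1.12 in untreated cells. It was higher in all 6 libraries with TGFβ than in the 6 without. Irak3 to Myd88, a brake against the adaptor it acts on, was 0.742 ± 0.0716 with TGFβ, 2.58 ± 0.212 with Pam3 and 1.88 ± 0.0205 with both. Per length, Irak3 made up 16.3% ± 0.768 of the summed RPKM of the 4 IRAK genes in untreated, 7.96% ± 0.388 in TGFβ, 38% ± 1.15 in Pam3 and 29.8% ± 0.392 in Pam3+TGFβ libraries (SD, n = 3). Absolute ratios and these shares, which were taken over exon unions, depend on the length used. Irak2 to Irak3 with both agents was 0.829 over exon unions and 1.22 over canonical transcripts. These ratios are a description, and no test was made on them.

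**Figure D3:**
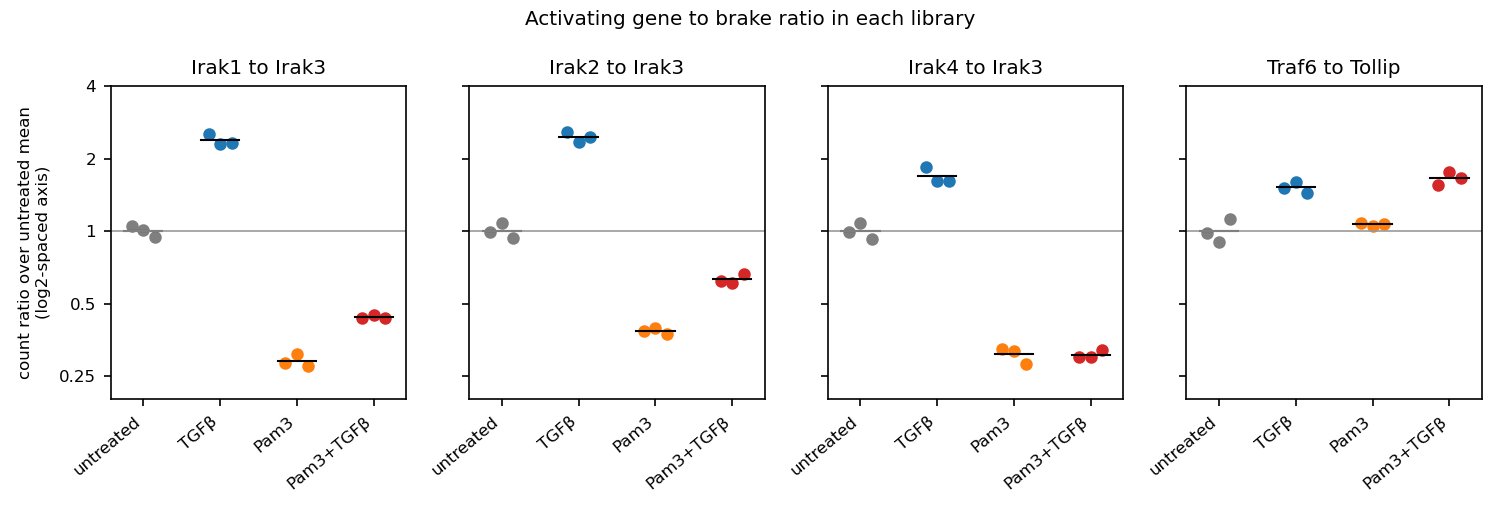
Count ratio of an activating gene to a brake in each library, divided by its mean in untreated cells (vertical axis, log2-spaced), for 4 pairs in the 4 groups; points are libraries and bars the group means. The 3 ratios to Irak3, which share that gene, lie above 1 with TGFβ alone and below 1 in all libraries with Pam3. Traf6 to Tollip is higher in every library with TGFβ (1.44 to 1.75) than in those without. The latter ran from 0.904 to 1.12 untreated and 1.05 to 1.08 with Pam3.

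Other genes of the pathway were counted from 5 lists. Of the 5 genes of the TLR2 receptor complex, all were lower with TGFβ at rest, where 28.1% of all tested genes were called lower (median log2 difference -0.69, against -0.01 over all tested genes). The co-receptor Tlr1 fell from 12.4 to 0.905 CPM (log2 difference -3.78, SE 0.167, adjusted p 5.68e-16) and the lipid receptor Cd36 from 456 to 51.2 CPM (-3.15, SE 0.0642, adjusted p 9.56e-20). Tlr2 itself held 454 CPM untreated, 324 with TGFβ, 594 with Pam3 and 1040 with both, the same order of groups as Myd88. Its Pam3 responses differed by 1.3 (SE 0.0763, adjusted p 3.67e-12), and those of the co-receptor Cd14 by 0.93 (SE 0.132, adjusted p 4.91e-05), while Tlr1, Tlr6 and Cd36 were not called in that comparison.

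Downstream of TRAF6, 3 of the 10 genes of the ubiquitin and TAK1 module were called for a difference between the Pam3 responses, against 15.9% of all tested genes in either direction, and all 3 encode Pellino ligases, which bind IRAK proteins. Peli3 (0.84, SE 0.139, adjusted p 7.44e-05) and Peli1 (0.46, SE 0.0995, adjusted p 0.00165) responded more with TGFβ. For Peli2 the difference had the other direction (-0.57, SE 0.0938, adjusted p 7.48e-05). It held 31.6 CPM untreated, 68.5 with TGFβ, 28.3 with Pam3 and 41.4 with both. In the IKK and NF-κB module 4 of 7 genes were called higher, against 10.3% of all tested genes, led by Nfkb2, a precursor subunit of NF-κB (1.68, SE 0.109, adjusted p 3.26e-10), and Nfkb1 (0.45, SE 0.0542, adjusted p 8e-07). Chuk, Ikbkb and Ikbkg, the genes of the IKK complex, were not called.

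Ticam1 was not called for a difference between the Pam3 responses (0.07, 95% interval -0.15 to 0.29, adjusted p 0.757), and 6 of the 9 genes of the arm downstream of TRIF were called higher and 0 lower, against 10.3% and 5.67% of all tested genes. Irf7, an interferon regulatory factor, held 6.91 CPM untreated, 5.53 with TGFβ, 50.4 with Pam3 and 220 with both, a difference between responses of 2.45 (SE 0.28, adjusted p 0.000256). Ikbke, a kinase related to TBK1, had 0.79 (SE 0.0656, adjusted p 1.54e-09) and its scaffold partner Tank 0.64 (SE 0.0872, adjusted p 4.96e-06). Of 12 other brakes, 6 were called higher and 0 lower against the same background, with a median of 0.45 against 0 over all tested genes. Tnfaip3, the deubiquitinase A20, had 2.24 (SE 0.0889, adjusted p 4.93e-15), Socs1, an inhibitor of cytokine signalling, 1.78 (SE 0.18, adjusted p 4.49e-08), and Nfkbia, the NF-κB inhibitor IκBα, 1.39 (SE 0.0708, adjusted p 3.12e-13). At rest 9 of these 12 brakes were lower with TGFβ, where 28.1% of all tested genes were called lower. Il1rl1, a receptor of the IL-1 family, fell from 16.8 to 0.232 CPM there (-6.14, SE 0.207, adjusted p 2.16e-18).

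**Figure D4:**
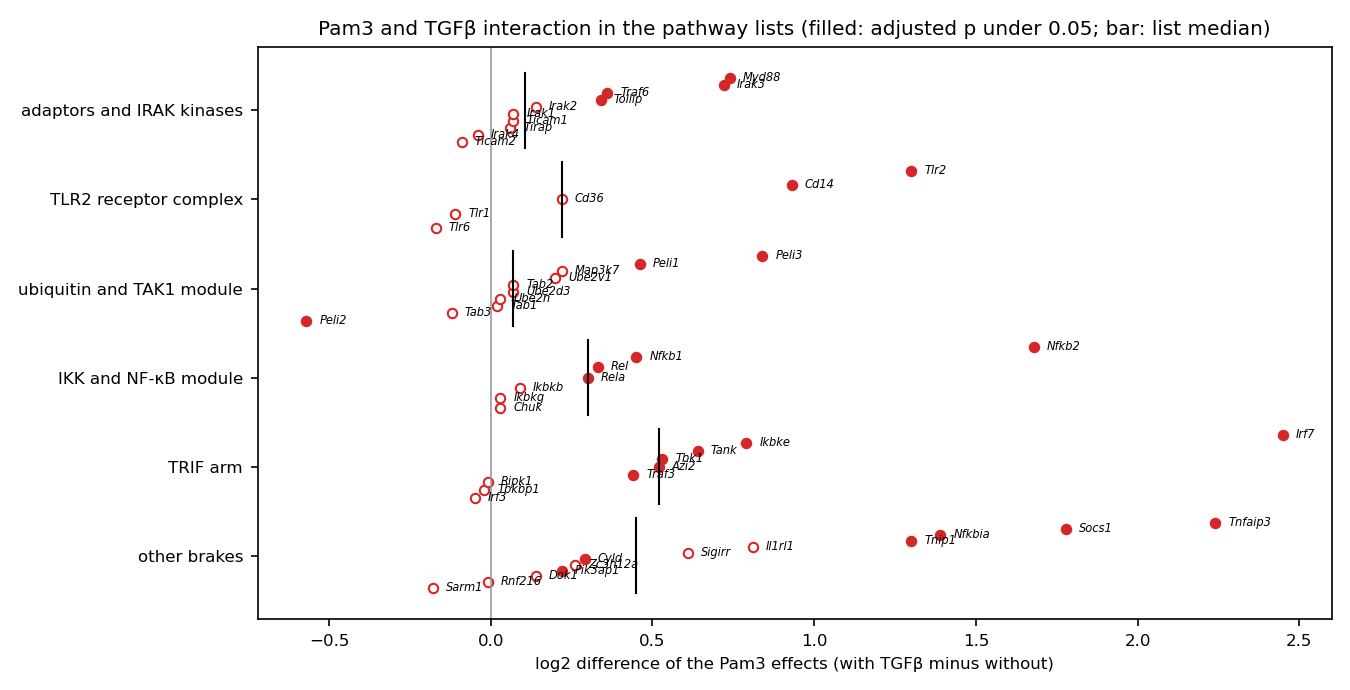
Difference of the Pam3 effects, with minus without TGFβ, on the log2 scale (horizontal axis) for the 10 members (top row) and 5 lists of other pathway genes; each point is a gene, filled where the adjusted p is under 0.05, and vertical bars are list medians. Irf7 (2.45), Tnfaip3 (2.24) and Socs1 (1.78) lie farthest to the right, and Peli2 (-0.57) is the called gene on the left.

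Genes with the pattern most like that of a member over the 12 libraries were found by the root mean square difference of centred log2 CPM, among 8778 genes with a mean of at least 10 CPM. For Myd88 they were Plekha1 (0.0354), Ifrd1 (0.0494) and Spryd7 (0.0656), where the median gene had 0.39 and Myd88 itself varied around its mean by 0.349. For Irak2, which varied by 0.288, they were Tmem219 (0.0576), Rhbdf2 (0.0587) and Lhfpl2 (0.0614), and the median gene had 0.333. For Irak3, which varied by 1.02, they had 0.256 for Ptges and Pou2f2 and 0.282 for Slc7a8, and the median gene had 1.03. Pou2f2, which encodes a transcription factor, held 16.3 CPM untreated, 11.9 with TGFβ, 73.5 with Pam3 and 49.2 with both. Likeness of pattern is a description of these libraries and says nothing of shared control.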

How the data were processed

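Polyadenylated RNA of 12 libraries was sequenced. Per the submitters' processing notes, the authors used FastQC 0.11.7, Bowtie2 2.4.1, GRCm39, featureCounts of Subread 2.0.0 and DESeq2 1.36.0. The annotation, strand and multiple-alignment settings of the counting are not given in the sources used here. Bowtie2 does not split reads over introns, so reads across exon junctions can be lost. The deposited counts are whole reads per gene symbol. The authors' normalized values are a deposited signal, the count divided by 1 constant per library, and were used for 1 alternative.

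The raw counts were tested by edgeR 4.0.16 under R 4.3.3 with its quasi-likelihood method (robust fit, TMM scaling, filterByExpr minimum count 10, 4 group means, 8 residual degrees of freedom). A call is an adjusted p (Benjamini-Hochberg, 14749 genes) below 0.05, and an adjusted p without a named tool is edgeR's. The SE is the log2 difference divided by the square root of F. Member counts ran from 743 to 9526 per library, a counting error of 3.67% to 1.03%. No 2 replicates agreed within sampling noise. The procedure was tested on simulated data. Lengths, positions and overlaps come from GENCODE M39.

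All 10 members are named. Of each of the 5 pathway lists, up to 3 called genes with the largest difference are named per comparison, and part of them is described. For Myd88, Irak2 and Irak3 the 3 genes nearest in pattern are given. Some genes were named outside this rule after their values were seen: Tlr1, Tlr6, Cd36, Chuk, Ikbkb and Ikbkg as not called for the difference between the Pam3 responses, and genes that overlap a member. Members and lists were chosen with earlier results of these data known. Alternatives were other scalings, DESeq2 1.42.0, limma 3.58.1 on log2 of the normalized values plus 1, other filters, a replicate block, only the groups compared, a minimum log2 difference of 0.5 and leaving out each library.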

Additional observations from a re-analysis of the deposited data

Results flagged for a closer look

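The Pam3 response of 4 members differed between cells with and without TGFβ by the test of that difference. On the log2 scale it was larger with TGFβ by 0.74 for Myd88 (SE 0.0676, edgeR adjusted p 7.48e-09) and by 0.72 for Irak3 (SE 0.0854, adjusted p 6.23e-07). For Traf6 it was larger by 0.36 (SE 0.0848, adjusted p 0.00366) and for Tollip by 0.34 (SE 0.0772, adjusted p 0.0025). With groups of 3 libraries, no test of single libraries that stand apart was made.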

How the results depend on the processing

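Of 990 values of members under alternatives (both Pam3 responses, both TGFβ effects and the difference of the responses, without the minimum difference), 913 kept direction and side of the threshold, 61 lost and 7 gained a call, and 9 changed sign. With those for Pam3 against TGFβ there were 13 sign changes, all of uncalled values near 0. Leaving out single libraries, the Pam3 difference without TGFβ ran from -0.06 to 0.04 for Ticam1 (above 0 without untreated replicate 2 or Pam3 replicate 2, 0.02) and from -0.03 to 0.06 for Traf6 (-0.03 without untreated replicate 2, 0 without Pam3 replicate 1). The difference of Pam3 responses ran from -0.02 to 0.14 for Tirap (-0.02 without untreated replicate 1 or Pam3+TGFβ replicate 3) and from -0.09 to 0.02 for Irak4 (0.02 without Pam3 replicate 1). For Pam3 against TGFβ it ran from -0.02 to 0.05 for Ticam2 (-0.02 without TGFβ replicate 3) and from -0.06 to 0.02 for Irak4 (0.01 and 0.02 without Pam3 replicates 2 and 3). With upper-quartile scaling the Pam3 difference was -0.01 for Traf6 without TGFβ and 0 for Ticam1 with TGFβ, and Ticam2 had -0.02 for Pam3 against TGFβ. The causes were not tested.

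The count of members lower with Pam3 under TGFβ was 1 without a filter and 1 to 3 without single libraries. The count lower with TGFβ under Pam3 was 2 with median-of-ratios factors, DESeq2, limma, no filter or at least 10 counts in every library, and 1 to 5 without single libraries. Between Pam3 and TGFβ alone, 4 members were lower with upper-quartile scaling or with only those groups fitted. A minimum log2 difference of 0.5 left 1 member higher and 0 lower for Pam3 without TGFβ, 2 and 0 for Pam3 with TGFβ, 0 and 1 for TGFβ at rest, 0 and 0 for TGFβ with Pam3, 1 higher for the difference of responses (Myd88, adjusted p 0.00633; Irak3 had 0.0589), 2 and 0 for both agents against untreated, and 2 and 1 for Pam3 against TGFβ. In the same order it left 307, 1388, 2487, 2155, 466, 2807 and 2871 of all tested genes.

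Canonical transcript lengths gave Irak2 to Irak3 ratios of 1.93, 4.75, 0.743 and 1.22 and Irak4 to Irak3 ratios of 2.26, 3.82, 0.695 and 0.693 in untreated, TGFβ, Pam3 and Pam3+TGFβ libraries, and Traf6 to Tollip ratios of 0.319 with TGFβ and 0.224 with Pam3; this alternative was chosen after seeing the data.

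Deviations of same-numbered libraries from their group means correlated at -0.17 to 0.3 (18 pairs, median 0.06, 7 over 0.1). Those of libraries with different numbers correlated at -0.4 to 0.32 (36 pairs, median -0.06, 8 over 0.1). Of 12 libraries, 5 correlated best with a library of their own number. With 3 libraries per group, these values cannot decide whether equal numbers mark a shared culture or day. With a replicate block, 1 member was lower with Pam3 under TGFβ in place of 3, and 2685 of all tested genes in place of 2670. For TGFβ under Pam3 the block left 4 members lower in place of 5, and 3525 of all tested genes in place of 3514. The call lost there was that of Irak4 (-0.15, adjusted p 0.0541). For the difference of responses 2393 in place of 2352 genes were called.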
